A study of Mus musculus with 12 samples.

Results

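The genes described here encode the E proteins (Tcf3, Tcf12 and Tcf4), the Id proteins that antagonise them (Id1, Id2 and Id3) and the E-box repressor Zeb1. They were chosen by symbol, as 7 rows of a count table of 54351 genes, and all 7 had enough counts to be tested. RNA was sequenced from 12 mouse samples in 4 groups of 3. They were leukaemia cells (T-ALL, a cancer of immature T cells) taken out of either the thymus or the spleen of sick LN3 transgenic mice, thymocytes of tumour-free wild-type (WT) mice, and T cells enriched for CD8 from the spleen of tumour-free wild-type mice. All mice were of the C57BL/6 strain per the labels. The labels give the LN3 genotype only by that name, with no promoter and no age. LN3 mice are known, from outside the labels, as a model that carries LMO2 and NUP98-HOXD13 transgenes. Organs were dissociated mechanically. Cells were enriched only from the WT spleen, by removing other cells, and no sorting step is given for the other 3 groups. Nothing in the labels states that each sample was a different animal, and p-values therefore reflect only how far these samples differ, some of which may be technical.

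E proteins are basic helix-loop-helix transcription factors that pair with each other and bind E-boxes, short DNA words that begin with CA and end with TG. Tcf3 encodes the splice forms E12 and E47, together called E2A, Tcf12 encodes HEB and Tcf4 encodes E2-2; the symbols here do not mean the Wnt factors Tcf7l1 and Tcf7l2, which share older names. E2A and HEB work as a pair in developing thymocytes, where they support the pre-T-cell receptor gene Ptcra, the recombinase genes and survival of double-positive cells. Id proteins have the helix-loop-helix but lack the basic region, so an E protein paired with one cannot bind DNA. In normal T-cell development Id3 is induced by receptor signals in the thymus, and Id2 and Id3 set the fate of mature CD8 cells. Zeb1 is a zinc-finger repressor that binds E-boxes. In human and mouse T-ALL, LMO2 and TAL1 act through complexes that contain E proteins.

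Libraries held 12694571 to 42483898 counts. A count of 3, the floor used for genes near 0, corresponded to 0.0656 to 0.261 CPM (counts scaled to library size with TMM factors). Markers of T-lineage cells (Cd3e, Cd3d, Cd3g, Cd247, Lck, Cd8a and Cd8b1) had counts for 7 of 7 genes in every library, with summed levels of 2455 to 4198 CPM in LN3 thymus, 2295 to 2755 in LN3 spleen, 4155 to 8474 in WT thymocytes and 2307 to 3438 in WT CD8 cells. Summed B-cell markers ranged from 262.5 to 1977 CPM in LN3 spleen and from 472.9 to 1354 in WT CD8 cells, against 283.8 to 463.8 in LN3 thymus and 344.9 to 592.1 in WT thymocytes. WT thymocyte library 3 stood apart by the relation of its counts to GC content: log2 levels rose by 0.997 per 10 percentage points of GC, against −0.413 to 0.475 in the other 11 libraries. In such bulk samples, fewer cells of a type and less RNA per cell cannot be told apart.

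Upstream sequences are shown for Tcf3 and Tcf12, for which the 3 WT CD8 libraries were the lowest of the 12, and for Ptcra, a known E-protein target that moved with them between the spleen groups. Sequences are from RefSeq (GRCm38.p6), on the minus strand, cut back to bases outside every GENCODE M21 exon. E-boxes are in capitals (CANNTG, a pattern that reads the same on both strands). The Tcf3 stretch spans chr10:80433648-80433885, that of Tcf12 chr9:72111872-72112069 and that of Ptcra chr17:46763713-46763962.
Tcf3: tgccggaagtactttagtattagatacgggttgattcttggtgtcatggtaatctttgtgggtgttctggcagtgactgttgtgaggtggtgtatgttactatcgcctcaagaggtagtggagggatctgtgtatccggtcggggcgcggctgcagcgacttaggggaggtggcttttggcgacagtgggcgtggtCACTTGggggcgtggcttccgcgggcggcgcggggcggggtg
Tcf12: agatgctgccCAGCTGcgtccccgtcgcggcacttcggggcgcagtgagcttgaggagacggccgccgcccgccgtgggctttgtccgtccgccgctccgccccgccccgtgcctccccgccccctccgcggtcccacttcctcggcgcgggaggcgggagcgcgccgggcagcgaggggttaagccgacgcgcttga
Ptcra: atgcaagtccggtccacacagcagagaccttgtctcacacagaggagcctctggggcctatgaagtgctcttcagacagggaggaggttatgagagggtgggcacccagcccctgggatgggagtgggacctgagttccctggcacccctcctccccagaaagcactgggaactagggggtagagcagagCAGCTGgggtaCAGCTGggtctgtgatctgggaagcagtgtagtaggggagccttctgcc
Tcf3 held 1 E-box and Tcf12 held 1, where 64.7% and 58.7% of 32851 promoter windows held at least 1 in a stretch of the same length and place. Ptcra held 2, both CAGCTG, where 66.2% of windows held at least 1 E-box of any kind. The share of windows with at least 2, or with CAGCTG, was not counted. The Zeb1-type word CAGGTG, on either strand, was not among these letters, and 16.47%, 14.3% and 17.22% of windows held it in the stretches matched to Tcf3, Tcf12 and Ptcra. Of the 7 genes, 4 (Tcf3, Tcf12, Id2 and Id3) were in the promoter table.

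Tcf12 was low in WT CD8 cells and highest on average in LN3 thymus. It had the smallest adjusted p of the 7 genes in LN3 spleen against WT CD8 cells and in WT CD8 cells against WT thymocytes. Tcf12 (ENSMUSG00000032228.16, chromosome 9, 71842688 to 72111871 on GRCm38) was at 141.9, 153.1 and 184.1 CPM in WT CD8 libraries 1 to 3 and at 458.3, 574.2 and 539.8 CPM in LN3 spleen. It was at 515.3, 389.8 and 339.7 CPM in WT thymocytes and at 577.2, 706.7 and 632.1 CPM in LN3 thymus. Every WT CD8 library lay below every other library, and every LN3 thymus library lay above every WT thymocyte library. In the spleen comparison Tcf12 was 3.28-fold higher in LN3 cells (log2 difference 1.71, SE 0.24, edgeR adjusted p = 0.000332), and WT CD8 cells were lower than WT thymocytes by 1.38 (log2, SE 0.24, adjusted p = 0.00213). These calls held in all 15 alternatives of each comparison, with adjusted p up to 0.00359 and 0.0224. In the thymus the difference was 0.62 (95% interval 0.11 to 1.13, adjusted p = 0.116), which did not pass although the groups did not overlap. LN3 spleen against WT thymocytes gave 0.34 (95% interval −0.17 to 0.85), and −0.03 with library totals as scaling.

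Tcf3 was also lowest in WT CD8 cells. Tcf3 (ENSMUSG00000020167.14, chromosome 10, 80409514 to 80433647) was at 123, 106.7 and 131.4 CPM in WT CD8 libraries 1 to 3 and at 294.1, 190.8 and 274.3 CPM in LN3 spleen. Thymic values were 232.8, 168.7 and 402.3 CPM in WT thymocytes and 260.9, 374.7 and 187.2 CPM in LN3 thymus. The WT CD8 libraries were again the 3 lowest of the 12, and the other 3 groups overlapped. LN3 spleen was 2.1-fold higher than WT CD8 cells (log2 difference 1.07, SE 0.34, edgeR adjusted p = 0.0314), and WT CD8 cells were lower than WT thymocytes by 1.15 (SE 0.34, adjusted p = 0.0375). The spleen call ended without LN3 spleen 1 or 3 or without any 1 WT CD8 library (adjusted p 0.0664 to 0.101), and with library totals (0.65, adjusted p = 0.0592) or upper-quartile factors (0.72, 0.0668) as scaling. That of the WT comparison ended without WT thymocyte 1 or 3 or without any 1 WT CD8 library (0.0636 to 0.134), and without WT thymocyte 3 its size was −0.73. LN3 thymus against WT thymocytes gave 0.03 (95% interval −0.70 to 0.76), with the sign changing to −0.12 under library totals or upper-quartile factors.

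Tcf4 (chromosome 18, 69343356 to 69689079), which encodes E2-2 and is known for its role in plasmacytoid dendritic cells, was not called in any comparison. Its values were 46.6, 40.7 and 13.9 CPM in WT thymocytes 1 to 3, 86.5, 57.7 and 48.6 CPM in LN3 thymus, 48.9, 30.6 and 9.62 CPM in WT CD8 cells and 62.7, 48.4 and 7.39 CPM in LN3 spleen. Library 3 was the lowest of its group in all 4 groups, and in WT thymocytes, WT CD8 cells and LN3 spleen it lay far below the other libraries. In LN3 thymus every library was above every WT thymocyte library (log2 difference 0.93, SE 0.70, adjusted p = 0.462). Among the libraries with low Tcf4, summed B-cell markers were the lowest of their group in LN3 spleen (262.5 CPM) and WT CD8 cells (472.9 CPM) and the highest of their group in WT thymocytes (592.1 CPM). The 4 plasmacytoid dendritic markers summed to 1.64 to 7.93 CPM in LN3 thymus, 2.1 to 16.5 in LN3 spleen, 37.1 to 73.4 in WT thymocytes and 44.7 to 81.3 in WT CD8 cells, with Cox6a2 at 0 counts in LN3 thymus 1 and Klk1 in LN3 spleen 3. Most of that sum was Pacsin1, at 45.6 CPM in WT thymocytes and 50.5 in WT CD8 cells on average, against 3.6 in LN3 thymus and 4.26 in LN3 spleen. Siglech averaged 3.03 CPM in WT thymocytes, 11.1 in WT CD8 cells, 2.75 in LN3 spleen and 0.475 in LN3 thymus. In the same order Klk1 was at 0.677, 0.563, 0.542 and 0.139, and Cox6a2 at 0.233, 2.08, 0.883 and 0.186. The part of these cells in the Tcf4 values was not tested.

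Zeb1 (chromosome 18, 5591860 to 5775467), a repressor known as a tumour suppressor in T-ALL, was at 173.5, 133.6 and 74.5 CPM in WT thymocytes 1 to 3 and at 109.5, 76.5 and 92.5 CPM in LN3 thymus. It was at 74.8, 68.6 and 91 CPM in WT CD8 cells and at 70.5, 100.7 and 107.5 CPM in LN3 spleen. WT thymocytes 1 and 2 were above the other 10 libraries, and WT thymocyte 3 lay among them. edgeR called Zeb1 in 0 of 6 comparisons. WT CD8 cells against WT thymocytes gave −0.70 (SE 0.30, adjusted p = 0.141), and without WT thymocyte 3 the difference was −0.97 (adjusted p = 0.0222). LN3 spleen against WT thymocytes gave −0.45 (adjusted p = 0.288), and −0.71 without that library (adjusted p = 0.0489). LN3 thymus against WT thymocytes gave −0.45 (95% interval −1.10 to 0.20). With 1 library left out, Zeb1 ranged from −0.97 to −0.44, from −0.71 to −0.16 and from −0.72 to −0.16 in these 3 comparisons, and each smallest difference was without WT thymocyte 1.

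**Figure D1:**
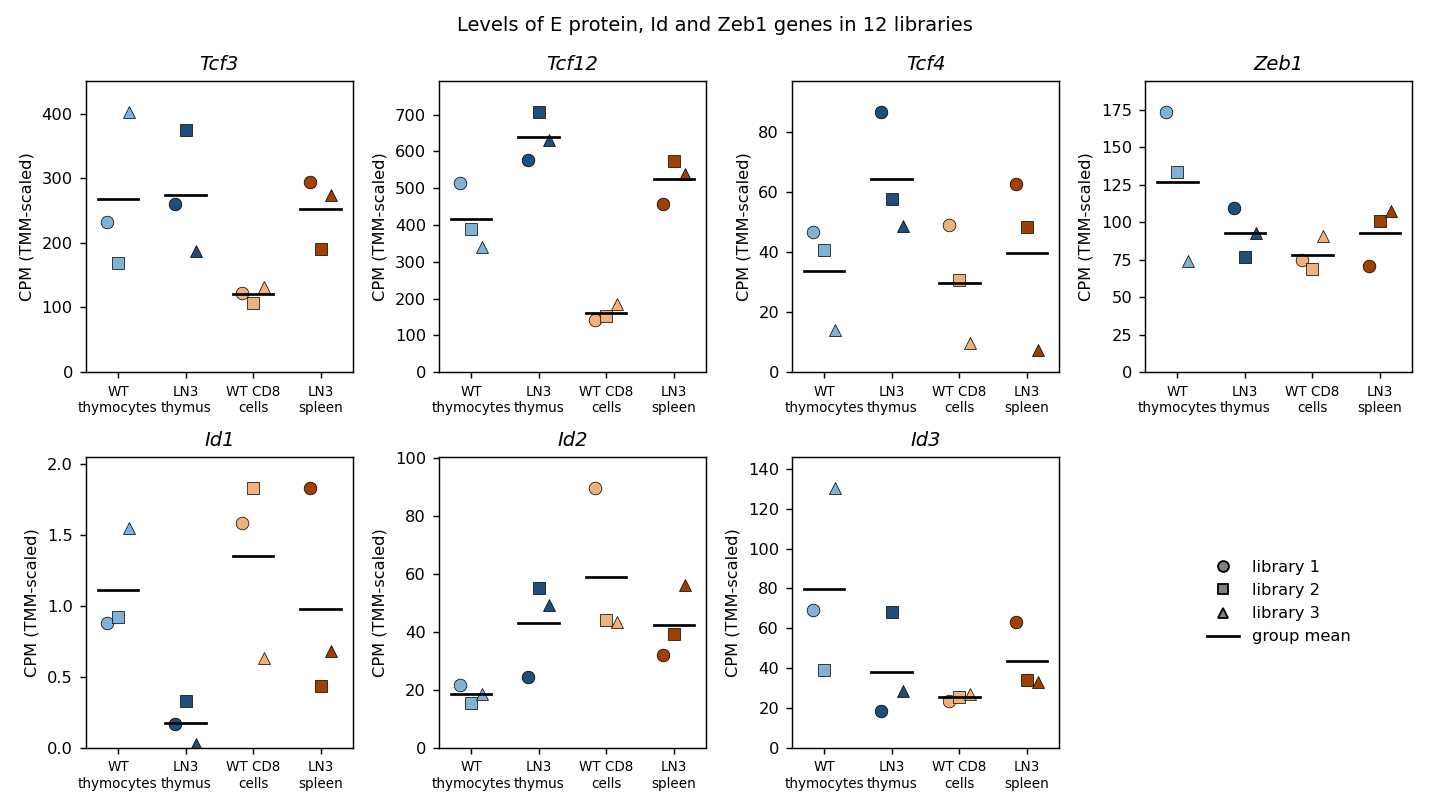
Level of each gene in every library, as CPM scaled with TMM factors on a linear axis that starts at 0, with the marker shape giving the library number and bars the group means (n = 3). The 3 WT CD8 libraries are the lowest of the 12 for Tcf12 (141.9 to 184.1 CPM) and Tcf3 (106.7 to 131.4 CPM), the WT thymocyte libraries are the lowest for Id2 (15.3 to 21.6 CPM), and library 3 of 3 groups is low for Tcf4.

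Among the Id genes, Id2 was lowest in WT thymocytes and Id3 was highest there on average. Id2 (ENSMUSG00000020644.9, chromosome 12, 25093799 to 25097140) was at 21.6, 15.3 and 18.4 CPM in WT thymocytes 1 to 3, at 24.4, 55.3 and 49.4 CPM in LN3 thymus, at 31.9, 39.2 and 56.2 CPM in LN3 spleen and at 89.7, 44 and 43.3 CPM in WT CD8 cells. The 3 WT thymocyte libraries were the lowest of the 12, and the other 3 groups overlapped. WT CD8 cells were 3.2-fold above WT thymocytes (log2 difference 1.68, SE 0.38, edgeR adjusted p = 0.0101). LN3 spleen was 2.3-fold above them (1.20, SE 0.38, adjusted p = 0.0407). LN3 thymus was 2.33-fold above them and did not pass (1.22, SE 0.38, adjusted p = 0.0546), although DESeq2 (0.0464) and the edgeR fit without a filter on low counts (0.0325) or without LN3 thymus 1 (0.0244) called it. The call of LN3 spleen ended in 10 of 15 alternatives, among them those without LN3 spleen 2 or 3 or any 1 WT thymocyte library (adjusted p 0.0538 to 0.154).

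The high WT CD8 value of Id2 belonged to library 1. Without it the difference of WT CD8 cells from WT thymocytes was 1.24 (adjusted p = 0.0548). Id2 is also known to be high in NK cells and dendritic cells, and the 5 NK markers summed to 390.9 CPM in WT CD8 library 1 against 167.4 and 50.9 CPM in libraries 2 and 3. Conventional dendritic markers summed to 1012, 540.6 and 78 CPM in the same order. NK markers summed to 3.06 to 15.5 CPM in LN3 thymus, 11.9 to 59.9 in LN3 spleen and 7.47 to 18 in WT thymocytes, with Ncr1, a defining NK receptor, at 0 counts in LN3 thymus 3 and LN3 spleen 2 and 3. Their part in the Id2 levels was not tested.

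Id3 (ENSMUSG00000007872.3, chromosome 4, 136143497 to 136145755) was at 69.4, 39.2 and 130.5 CPM in WT thymocytes 1 to 3, at 18.2, 68 and 28.6 CPM in LN3 thymus, at 63, 34.1 and 33 CPM in LN3 spleen and at 23.5, 25.5 and 27 CPM in WT CD8 cells. WT CD8 libraries were close to each other and lay below all WT thymocyte and LN3 spleen libraries, while LN3 thymus overlapped with every other group. WT CD8 cells were lower than WT thymocytes by 1.65 (log2, SE 0.50, edgeR adjusted p = 0.0414). That call ended without WT thymocyte 1 or 3 or any 1 WT CD8 library (adjusted p 0.0709 to 0.188), and without WT thymocyte 3 the difference was −1.10. LN3 thymus against WT thymocytes gave −1.06 (SE 0.49, adjusted p = 0.206) and LN3 spleen against WT thymocytes −0.88 (SE 0.49, adjusted p = 0.214). With library totals as scaling those differences were −1.29 (adjusted p = 0.0372) and −1.14 (0.0443), while the median of all genes moved to −0.24 and −0.41. Without WT thymocyte 3 they were −0.50 (0.541) and −0.31 (0.642).

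Id1 (chromosome 2, 152736251 to 152737410), an Id gene known mainly from BMP-responsive and stem cells, was close to the floor everywhere. It had 4, 4 and 1 counts in LN3 thymus 1 to 3, which is 0.168, 0.33 and 0.0281 CPM, and 13, 15 and 18 counts in WT thymocytes, which is 0.877, 0.919 and 1.55 CPM. LN3 spleen was at 1.83, 0.434 and 0.682 CPM and WT CD8 cells at 1.58, 1.83 and 0.634 CPM. LN3 thymus libraries were the 3 lowest of the 12, and the other groups overlapped. Id1 was lower in LN3 thymus than in WT thymocytes by 2.86 (log2, SE 0.83, edgeR adjusted p = 0.0435). The call ended in 8 of 15 alternatives, among them those without LN3 thymus 1 or 3 or any 1 WT thymocyte library (adjusted p 0.0722 to 0.144), and its counts are too few for a firm size.

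Counted over comparisons, 1 of 7 genes (Id1, lower) was called in LN3 thymus against WT thymocytes, where edgeR called 11.3% of 20897 genes (6.06% higher and 5.21% lower). In LN3 spleen against WT CD8 cells 2 of 7 were called (Tcf3 and Tcf12, both higher), where the share over all genes was 30.9% (17.9% higher and 13% lower). In WT CD8 cells against WT thymocytes 4 of 7 were called (Tcf3, Tcf12 and Id3 lower, Id2 higher), against 15.7% of all genes (7.24% higher and 8.48% lower). Only Id2, 1 of 7, was called in LN3 spleen against WT thymocytes (higher), against 19.8% (11.3% higher and 8.51% lower). Groups did not overlap for 4, 3, 4 and 1 of the 7 genes in these comparisons, against 27.2%, 58.2%, 36.5% and 34.8% of all genes. The median log2 difference of the 7 genes was 0.03, 0.41, −0.70 and −0.08 in the same order, against −0.04, −0.11, 0.00 and −0.07 over all genes. The spleen and thymus comparisons that use WT thymocytes or LN3 spleen share those libraries and are not independent of each other.

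**Figure D2:**
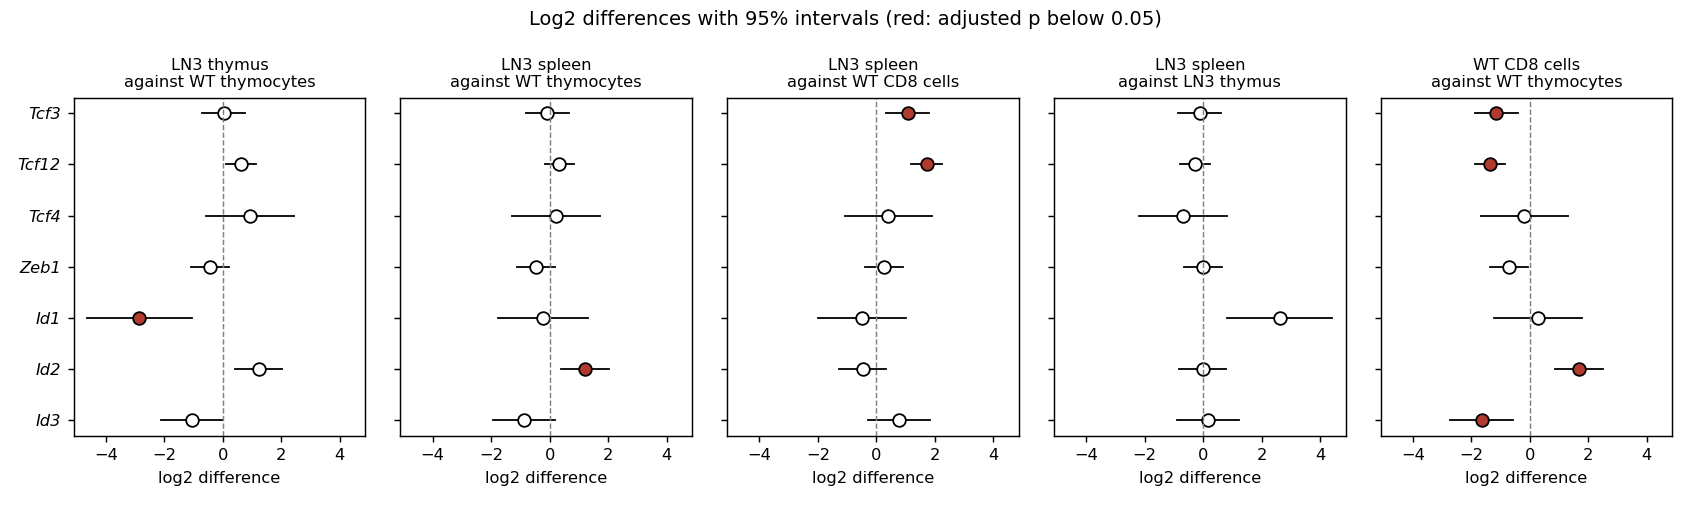
Log2 differences of the 7 genes in 5 comparisons, from the edgeR fit over all 12 libraries, with 95% intervals as bars. Red points have adjusted p below 0.05: Id1 in the thymus, Id2 in LN3 spleen against WT thymocytes, Tcf3 and Tcf12 in LN3 spleen against WT CD8 cells, and Tcf3, Tcf12, Id2 and Id3 between the WT groups. No point is red in LN3 spleen against LN3 thymus.

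Leukaemia cells of the spleen and of the thymus were compared to ask whether the organ made a difference. edgeR called 0 of the 7 genes between them, and DESeq2 and limma each called 0. At an unadjusted p under 0.05 was 1 of the 7 (Id1), against 1817 of the 20897 genes tested. Over all genes edgeR called 0.723% (0.694% higher and 0.0287% lower). For Tcf12 every LN3 spleen library was below every LN3 thymus library (log2 difference −0.29, 95% interval −0.79 to 0.22). For Id1 every LN3 spleen library was above every LN3 thymus library (2.62, SE 0.83, adjusted p = 0.243). Groups did not overlap for these 2 of 7 genes, against 11.5% of all genes. For Id2 the difference was −0.02 (95% interval −0.82 to 0.78), for Id3 0.18 (−0.88 to 1.24), for Tcf3 −0.12 (−0.85 to 0.61) and for Zeb1 0.00 (−0.65 to 0.65).

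The difference of the leukaemia effect between organs, that is LN3 spleen against WT CD8 cells minus LN3 thymus against WT thymocytes, was tested as an interaction. edgeR called 0 of the 7 genes, against 4.19% of all genes (3.29% higher and 0.895% lower). At an unadjusted p under 0.05 were 5 of the 7, against 3648 of the 20897 genes tested. DESeq2 called 1, Tcf12 (1.17, adjusted p = 0.0101), and limma called 0. In edgeR Tcf12 was at 1.09 (SE 0.33, adjusted p = 0.0933), Id2 at −1.70 (SE 0.53, adjusted p = 0.0992), Id3 at 1.83 (SE 0.70, adjusted p = 0.184) and Tcf3 at 1.04 (SE 0.48, adjusted p = 0.286). Without WT thymocyte 3 the Tcf12 value was 1.22 (adjusted p = 0.0402), without LN3 thymus 1 that of Id2 was −2.01 (0.0499) and without LN3 thymus 2 that of Id3 was 2.55 (0.0488). Leaving out any other 1 library called 0 of the 7. With 1 library left out, values ranged from 0.949 to 1.22 for Tcf12, from −2.01 to −1.25 for Id2 and from 1.28 to 2.55 for Id3. Since the control was a mature CD8 population in the spleen and an immature one in the thymus, organ and stage of the control cannot be told apart.

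In the 3 libraries with the strongest rise of log2 levels with GC content Tcf3, Id3 and Id1 were above their group means and Zeb1 was below. Transcript GC content was 61.5% for Tcf3, 55.4% for Id3 and 55% for Id1, against 46.9% for Tcf12, 46.7% for Zeb1 and 46.6% for Id2. In WT thymocyte 3, the library with the steepest trend, log2 CPM was above the group mean for Tcf3 (0.68), Id3 (0.88) and Id1 (0.49) and below it for Zeb1 (−0.69). LN3 thymus 2 and LN3 spleen 1 had the next strongest rises. There too Tcf3 (0.51 and 0.24), Id3 (1.05 and 0.60) and Id1 (0.85 and 1.06, from few counts) were above and Zeb1 (−0.26 and −0.37) below. Tcf12 and Id2, with a GC content like that of Zeb1, were not below in all 3 libraries. In WT thymocyte 3, LN3 thymus 2 and LN3 spleen 1 Tcf12 was at −0.27, 0.15 and −0.19. Id2 was at 0.01, 0.45 and −0.37 in the same order. WT thymocyte 2 had the strongest fall with GC content (−0.413). There Tcf3 was at −0.57, Id3 at −0.85, Id1 at −0.21, Zeb1 at 0.16, Tcf12 at −0.07 and Id2 at −0.25. Trends of the WT CD8 libraries spanned only −0.319 to −0.174, and there Tcf3 (0.13) and Id3 (0.09) were highest in library 3, with the lowest trend. A check added after the data were seen left out the 3 libraries with the strongest rise. WT CD8 cells then differed from WT thymocytes by −0.71 in Tcf3 (edgeR adjusted p = 0.0904), by 1.72 in Id2 (0.0505) and by −0.95 in Zeb1 (0.0137). The calls of Tcf12 and Id3 between the WT groups held without these libraries. With an offset for GC content in place of leaving libraries out, the Zeb1 difference was −0.87 (0.031). Under that offset the calls of Tcf3, Tcf12, Id2 and Id3 between the WT groups held, and with Zeb1 5 members were called. The loss of the Tcf3 and Id2 calls was therefore seen with libraries left out and not with the offset. In LN3 spleen against WT CD8 cells the offset gave 0.69 for Tcf3 (edgeR adjusted p = 0.037), against 1.07 in the main fit. For Tcf12 it gave 1.86 there, against 1.71.

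**Figure D3:**
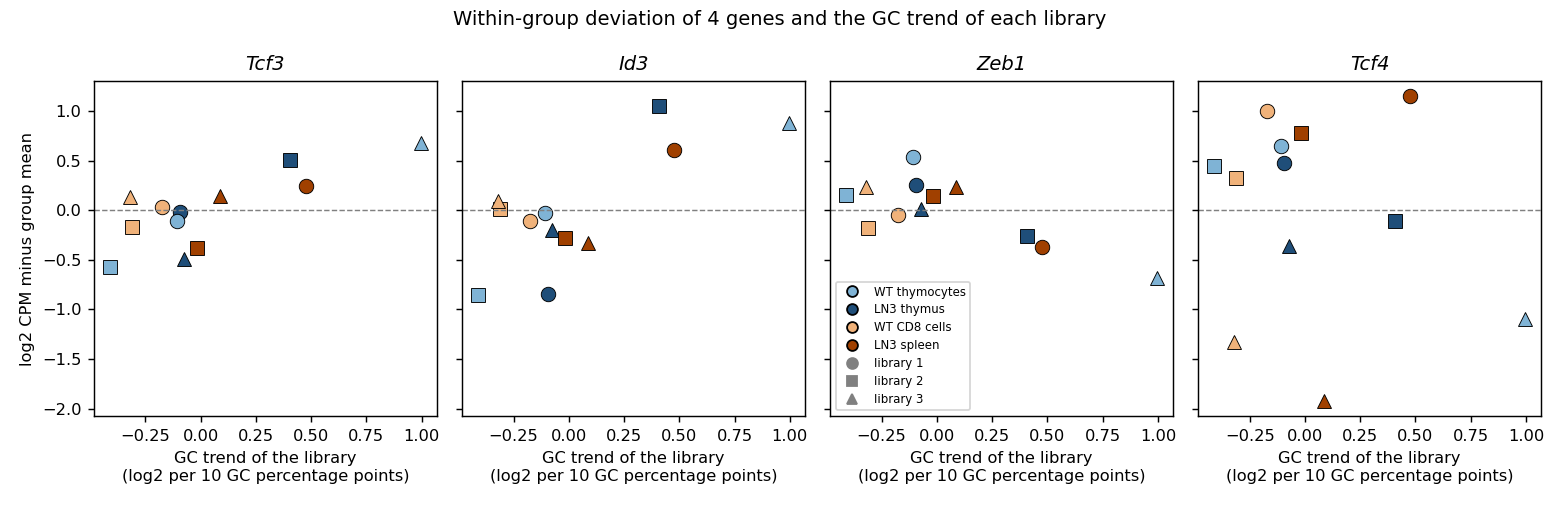
Within-group deviation (log2 CPM minus group mean) of Tcf3, Id3, Zeb1 and Tcf4 against the GC trend of each library, in log2 units per 10 percentage points of GC content. The library at the far right, WT thymocyte 3 (0.997), is high for Tcf3 (0.68) and Id3 (0.88) and low for Zeb1 (−0.69). The low Tcf4 values of WT CD8 3 and LN3 spleen 3 lie at trends of −0.319 and 0.0858.

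Levels of different genes were compared per length, as CPM per kb of the longest coding transcript in GENCODE M21. On that scale Tcf3 and Tcf12 were the most abundant of the 7 genes in LN3 thymus, at 93 ± 32 and 101.4 ± 10.3 CPM per kb (SD, n = 3), with Id3 at 30 ± 20.5, Id2 at 21.8 ± 8.33, Zeb1 at 16 ± 2.85, Tcf4 at 7.49 ± 2.31 and Id1 at 0.151 ± 0.13. In WT thymocytes Tcf3 was at 90.8 ± 40.9, Tcf12 at 65.9 ± 14.4, Id3 at 62.4 ± 36.4 and Id2 at 9.36 ± 1.6. These first 3 levels did not differ beyond their spread. In WT CD8 cells Tcf3 was at 40.8 ± 4.27, Id2 at 30 ± 13.5, Tcf12 at 25.4 ± 3.47 and Id3 at 19.8 ± 1.37. The place of Tcf12 in these orders changed with the length used. All exons together gave 67.9 CPM per kb for Tcf3 and 41.1 for Tcf12 in LN3 thymus. On that length Tcf12 was also below Id3, at 26.7 against 44.5 in WT thymocytes and 10.3 against 14.1 in WT CD8 cells.

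The ratio of Id3 to Id2 per length was above 1 in all 3 WT thymocyte libraries (4.95, 3.94 and 10.9) and below 1 in all 3 WT CD8 libraries (0.404, 0.891 and 0.961). In LN3 thymus it was 1.15, 1.9 and 0.893, and in LN3 spleen 3.04, 1.34 and 0.904. All 6 leukaemia libraries therefore lay below the 3 WT thymocyte libraries, and 4 of the 6 lay above the 3 WT CD8 libraries. The highest ratios of WT thymocytes (10.9, library 3), LN3 spleen (3.04, library 1) and LN3 thymus (1.9, library 2) were in the 3 libraries with the strongest rise with GC content. Transcript GC content was 55.4% for Id3 and 46.6% for Id2, and the part of the GC trend in these ratios was not tested. The summed E protein level over the summed Id level was 1.07, 1.46 and 1.71 in WT CD8 cells and 2.68, 3.44 and 3.27 in LN3 spleen. It was 2.52, 3.15 and 1.7 in WT thymocytes and 7.1, 3.02 and 3.57 in LN3 thymus. LN3 spleen libraries all lay above the WT CD8 libraries, LN3 thymus overlapped with WT thymocytes, and the highest value, LN3 thymus 1, was the library with the lowest Id sum. These ratios are of RNA, with no test, and say nothing of protein.

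**Figure D4:**
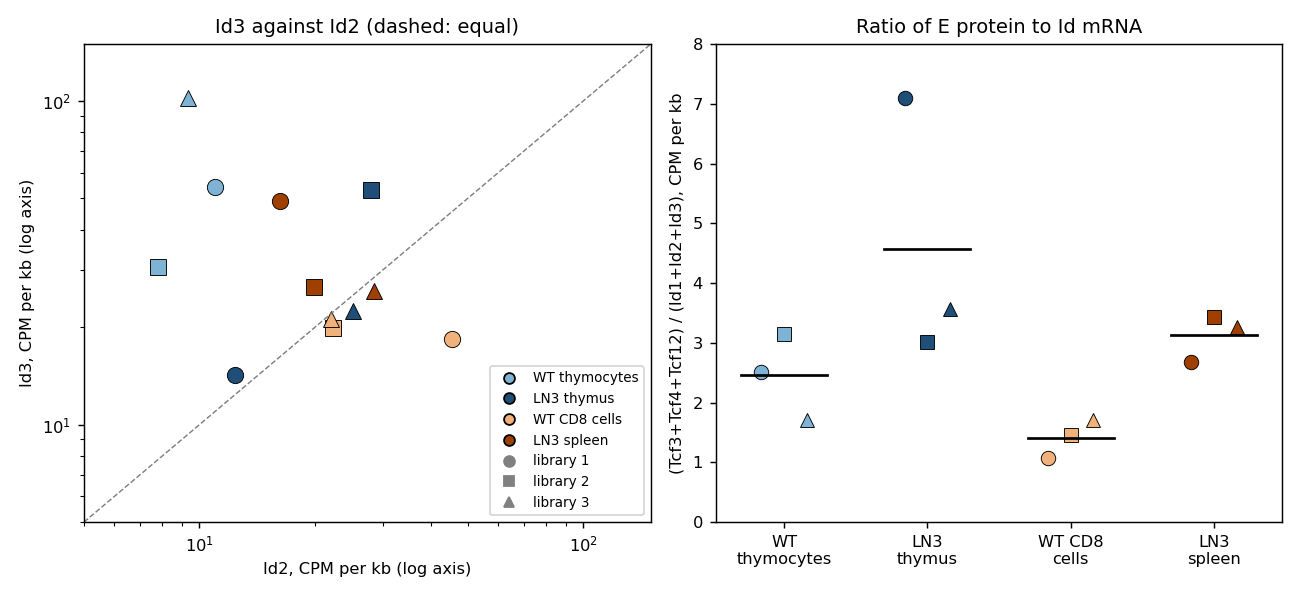
Left, Id3 against Id2 in every library, as CPM per kb of the longest coding transcript, on log axes with equality dashed. The WT thymocyte libraries lie above the line at low Id2 (ratios of 3.94 to 10.9) and the WT CD8 libraries below it. The ratio of 10.9 is of WT thymocyte 3, the library with the steepest GC trend. Right, summed E protein level over summed Id level per library with group means (n = 3), on an axis that starts at 0: WT CD8 libraries lie at 1.07 to 1.71 and LN3 spleen libraries at 2.68 to 3.44.

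The genes that E proteins are known to activate in thymocytes were listed as Ptcra, Rag1, Rag2, Dntt, Cd4, Cxcr4, Notch1 and Cdkn1a. Rag1 was higher in LN3 cells in the spleen comparison and lower in the thymus comparison, while Notch1 was higher in LN3 cells in both. In WT CD8 cells against WT thymocytes 6 of 8 were lower and 0 higher (median log2 difference −5.52), where 8.48% of all genes were lower and their median was 0.00. Between LN3 spleen and WT CD8 cells 4 were higher in LN3 and 0 lower (median 2.60), where 17.9% of all genes were higher and their median was −0.11. In LN3 thymus against WT thymocytes, where neither Tcf3 nor Tcf12 passed the test, 2 were lower and 1 higher (median −0.76), where 5.21% of all genes were lower, 6.06% were higher and their median was −0.04. Ptcra, which encodes the pre-T-cell receptor alpha chain and whose upstream E-boxes are printed above, rose from 0.32 CPM in WT CD8 cells to 17.7 CPM in LN3 spleen (log2 difference 5.71, SE 0.99, edgeR adjusted p = 0.00122). The polymerase gene Dntt rose from 5.38 to 502.7 CPM (6.54, SE 0.47, adjusted p = 2.92e-06) and the recombinase gene Rag1 from 2.28 to 257.8 CPM (6.82, SE 0.87, adjusted p = 0.000166). In the thymus Cd4 fell by 4.71 (SE 0.83, adjusted p = 0.00349) and Rag1 by 3.25 (SE 0.73, adjusted p = 0.0127), while the receptor Notch1 rose by 2.37 (adjusted p = 0.00231). The Cd4 call ended without the 3 libraries with the strongest rise with GC content (edgeR adjusted p = 0.0573). That of Rag1 ended there (0.12), without LN3 thymus 2 (0.0547) and without a filter on low counts.

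Genes that E proteins are known to hold down (Gata3, Cdk6, Il7r, Klf2, S1pr1, Ccr7 and Zbtb16) moved in both directions. Between LN3 spleen and WT CD8 cells 5 of 7 were lower in LN3 and 2 higher (median −2.61), against 13% lower and 17.9% higher over all genes (median −0.11). The interleukin-7 receptor gene Il7r fell by 5.29 (SE 0.61, edgeR adjusted p = 9.54e-05) and the egress receptor gene S1pr1 by 4.26 (adjusted p = 0.00331). The transcription factor gene Gata3 was higher by 1.91 (adjusted p = 0.00112), and so was the cyclin-dependent kinase gene Cdk6, by 1.40 (adjusted p = 0.0216, ended in 6 alternatives with adjusted p up to 0.154). In WT CD8 cells against WT thymocytes 3 were higher and 1 lower (median 1.64), against 7.24% and 8.48% of all genes. In LN3 thymus against WT thymocytes 1, Il7r, was lower (−2.88, adjusted p = 0.00543) and 0 higher (median −1.45), against 5.21% and 6.06%. Il7r and S1pr1 were also higher in WT CD8 cells than in WT thymocytes, by 3.45 (adjusted p = 0.0014) and 3.10 (0.0234, ended in 6 alternatives with adjusted p up to 0.117), so that leukaemia and stage of the control cannot be told apart in the spleen comparison.

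**Figure D5:**
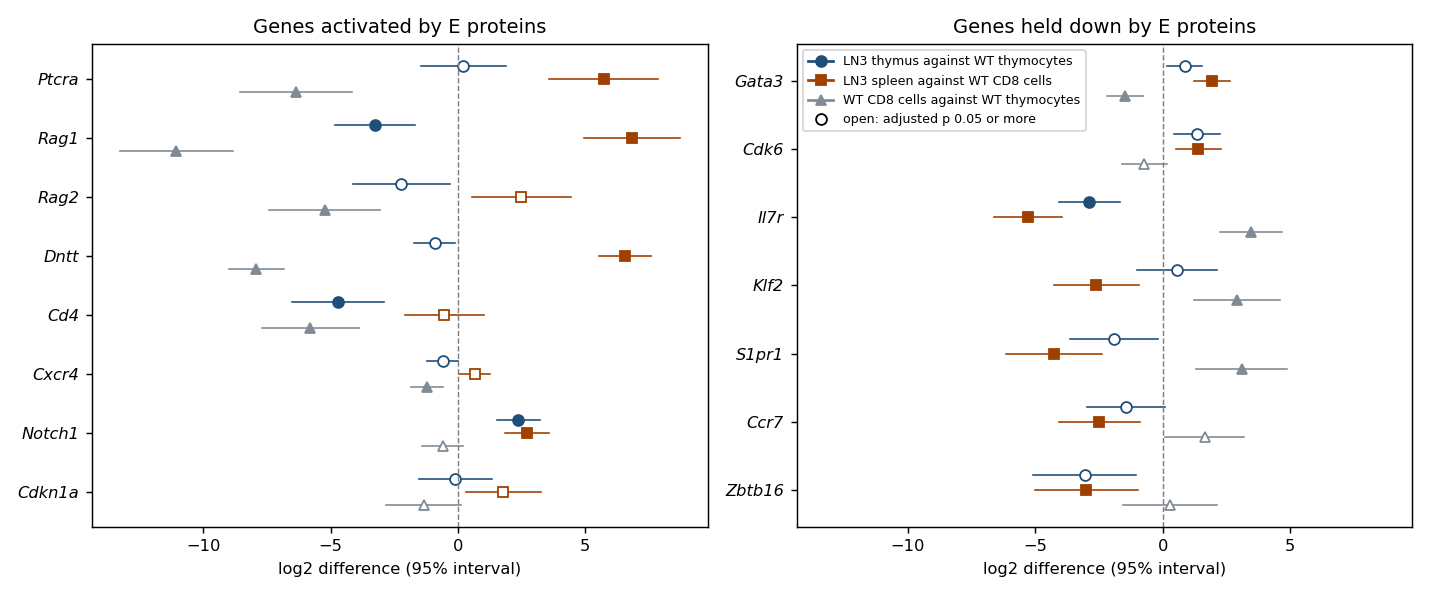
Log2 differences with 95% intervals of genes known to be activated (left) or held down (right) by E proteins, in the thymus comparison (circles), the spleen comparison (squares) and the comparison of WT groups (triangles). Filled symbols have adjusted p below 0.05. In the left panel 4 squares are filled, all to the right of 0, and 3 circles are filled, of which Rag1 and Cd4 lie to the left and Notch1 to the right.

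Upstream of the Id genes, T-cell receptor response genes (Egr1, Egr2, Egr3, Nr4a1, Nr4a3, Nfatc1, Cd69 and Cd5) were lower in 3 of 8 cases in LN3 thymus against WT thymocytes, and higher in 0 (median −0.62), against 5.21% and 6.06% of all genes (median −0.04). Egr2, an early growth response factor of the family that induces Id3, fell by 3.17 (SE 0.57, edgeR adjusted p = 0.00387), from 30.1 to 3.4 CPM. Cd69, an activation marker, fell by 2.65 (adjusted p = 0.00402) and the nuclear receptor gene Nr4a3 by 2.16 (adjusted p = 0.00749). In the spleen comparison Cd69, Nr4a3 and Egr2 were lower (−2.78, −2.21 and −1.98, with the Egr2 call ended in 3 alternatives at adjusted p up to 0.0745) and Egr1 was higher (0.89, adjusted p = 0.0281, a call that ended in 8 alternatives with adjusted p up to 0.093). Of 13 tested genes of the BMP and TGF-beta pathway, which can induce Id1 to Id3, edgeR called 0 in LN3 thymus against WT thymocytes, against 11.3% of all genes. The spleen comparison had 3 higher and 5 lower (median −0.13), against 17.9% and 13% of all genes (median −0.11). The inhibitory Smad gene Smad7 fell by 3.99 (adjusted p = 0.00185), the receptor gene Bmpr2 by 1.88 (0.0134) and the receptor gene Tgfbr2 by 1.60 (0.00401), and of these only the Bmpr2 call ended in any of the 15 alternatives (without LN3 spleen 3 or WT CD8 2, with adjusted p up to 0.0609). The higher calls, of Smad3 (0.997, adjusted p = 0.0228), Smad5 (0.96, 0.00772) and Smad1 (0.69, 0.0385), ended in 7, 2 and 10 alternatives with adjusted p up to 0.0919, 0.141 and 0.271, library totals and upper-quartile factors among them for each. Leaving out LN3 spleen 2 or any 1 WT CD8 library ended the calls of both Smad3 and Smad1, as did LN3 spleen 3 for Smad3 and LN3 spleen 1 for Smad1.

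Genes that act on the stability of E or Id proteins were higher in the spleen comparison in 2 of 6 cases and lower in 0, a share near that of all genes called there (30.9%). Skp2, which encodes an F-box protein of a ubiquitin ligase, rose from 9.27 to 79.5 CPM (log2 difference 3.10, SE 0.28, edgeR adjusted p = 1.68e-05), and Usp1, a deubiquitinase known to stabilise Id proteins, rose from 68.1 to 272.9 CPM (2.00, SE 0.34, adjusted p = 0.00103). Skp2 was also lower in WT CD8 cells than in WT thymocytes (−2.02, adjusted p = 0.000452), and in the thymus edgeR called 0 of the 6. Among E-box repressors other than Zeb1, Zeb2, a related repressor of effector CD8 and myeloid cells, was at 71.6 CPM in WT CD8 cells, 16.6 in LN3 spleen and 6.87 in WT thymocytes. It was lower in LN3 spleen than in WT CD8 cells (−2.11, adjusted p = 0.0329, ended in 9 of 15 alternatives with adjusted p up to 0.125), and summed myeloid markers were at 168.7 to 624.1 CPM in LN3 spleen and 184.6 to 2556 in WT CD8 cells. Snai1, a related zinc-finger repressor, rose in the same comparison from 0.288 to 1.9 CPM (2.67, adjusted p = 0.00292). Of the 6 genes for E-box repressors and their CtBP co-repressors, edgeR called 1 in LN3 thymus against WT thymocytes, Snai3 (1.63, SE 0.46, adjusted p = 0.0392), a call that ended in 7 of 15 alternatives with adjusted p up to 0.161, among them those without LN3 thymus 2 or 3 or WT thymocyte 1 or 2.

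Of 11 partner genes (class II helix-loop-helix factors, LMO adaptors and Id4), 7 could be tested. Tal1, a class II factor that pairs with E proteins in T-ALL, was at 40.9 CPM in LN3 spleen, 11.7 in WT CD8 cells, 0.107 in LN3 thymus and 0.243 in WT thymocytes. It was higher in LN3 spleen than in LN3 thymus (log2 difference 8.46, SE 0.99, edgeR adjusted p = 0.00624). That call ended without LN3 thymus 1 (0.0714) and without the 3 libraries with the strongest rise with GC content (0.223). Tal1 is also an erythroid gene, and the 4 erythroid markers summed to 1136 to 3909 CPM in LN3 spleen, 24.4 to 401.8 in WT CD8 cells, 5.4 to 95.9 in LN3 thymus and 10.8 to 2493 in WT thymocytes. Their part in the Tal1 level was not tested. In LN3 thymus against WT thymocytes edgeR called 0 of the 7 partners, against 11.3% of all genes. Higher were 2 in LN3 spleen against LN3 thymus and 3 in WT CD8 cells against WT thymocytes, against 0.694% and 7.24% of all genes. LN3 spleen had 4 higher against WT thymocytes and 1 against WT CD8 cells, against 11.3% and 17.9% of all genes. In each of these comparisons 0 partners were lower. The adaptor gene Lmo4 was higher in LN3 spleen than in WT CD8 cells (2.26, SE 0.45, adjusted p = 0.00269).

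Of the co-factors of E proteins, Cbfa2t3, an ETO-family co-repressor gene, was higher in LN3 spleen than in WT CD8 cells (1.79, SE 0.43, edgeR adjusted p = 0.00774). It was lower in WT CD8 cells than in WT thymocytes (−1.82, adjusted p = 0.0125, 0.0866 without the 3 libraries with the strongest GC trend), at 95.4, 27.5 and 97.3 CPM in LN3 spleen, WT CD8 cells and WT thymocytes. The co-activator genes Ep300 and Crebbp were lower in LN3 spleen than in WT CD8 cells by 0.68 (adjusted p = 0.0462) and 0.81 (0.0383), calls that ended in 11 and 8 of 15 alternatives with adjusted p up to 0.167 and 0.147. Kat2a, an acetyltransferase gene, was 2.1-fold above WT thymocytes in LN3 thymus (1.07, adjusted p = 0.0325, ended in 5 alternatives with adjusted p up to 0.167) and 2.07-fold above WT CD8 cells in LN3 spleen (1.05, adjusted p = 0.0166, ended in 3 with up to 0.0819).

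The genes whose log2 CPM over the 12 libraries was most like that of a member were, for Tcf12, Ick, Neu3 and Rprd1a (Pearson r of 0.979, 0.978 and 0.977) and, for Tcf3, Wdr83, Hmg20b and Mlf2 (0.993, 0.988 and 0.988). For Id3 they were Cog8, Pef1 and H13 (0.94, 0.938 and 0.937). For Id2 they were Elac1, Cd160, a receptor of killer cells, and Lilr4b (0.901, 0.875 and 0.857), and for Id1 Kit, Cdc42ep3 and Reep5 (0.915, 0.904 and 0.9). They were taken as the 3 highest of all tested genes with a mean of at least 10 CPM, and all points share the library's depth and GC trend. Among the members themselves, Tcf3 and Tcf12 gave r = 0.72 over 12 libraries, and −0.21 once group means were removed. Tcf3 and Id3 gave 0.7 and, within groups, 0.78, while Id3 and Zeb1 gave −0.03 and, within groups, −0.72.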

How the data were processed

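RNA-seq libraries were made from polyA RNA with a directional kit, per the labels' protocols. The authors deposited a table of estimated counts per gene, made with kallisto 0.46.1 on GRCm38, and a table of variance-stabilized log2 values, with FastQC and DESeq2 also named, per the submitters' processing notes. All 652212 deposited count values were whole numbers. The sources used here give neither the annotation release nor the use of strand in counting, so reads of Tcf4, Tcf12 and Zeb1 may include some from genes that lie within or across them.

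Counts were tested with edgeR 4.0.16 in R 4.3.3 (quasi-likelihood test, TMM factors, filterByExpr, robust spread), with 1 fit of 4 group means to 12 libraries and 8 residual degrees of freedom. Benjamini-Hochberg adjustment ran over the 20897 genes tested, and a gene was called at an adjusted p below 0.05. SE is the log2 difference divided by the root of its F statistic. Genes not in the members are named by rule: of each pathway list at most the 3 called genes with the largest difference in each direction per comparison, and the 3 genes most correlated with each called member. Some genes that the rule allows enter the counts only, and 1 gene was left out of its list and is not reported here. The members and lists were chosen with earlier results of these data known. In simulated data for LN3 thymus against WT thymocytes (20897 genes), 7.46% of 67 genes changed by 1 on the log2 scale were called, 67.2% of 67 changed by 2 and 92.4% of 66 changed by 3, with 8 false calls. The changed genes all had mean levels above that of Id1, so these shares do not cover Id1. No GC trend was simulated. Alternatives were library totals, upper-quartile factors, DESeq2 1.42.0, limma 3.58.1 on the authors' log2 values, no filter, only the groups compared, a replicate block and leaving out each library. Added after seeing the data were an offset for GC content and leaving out the 3 libraries with the strongest GC trend. Lengths and positions are from GENCODE M21 (GRCm38).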

Additional observations from a re-analysis of the deposited data

Results flagged for a closer look

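The leukaemia difference of 5 named pathway genes was more positive in the spleen than in the thymus by the edgeR test of the interaction. The values are log2 differences of differences, LN3 spleen against WT CD8 cells minus LN3 thymus against WT thymocytes. Rag1 was at 10.07 (adjusted p = 0.000741) and Dntt at 7.46 (SE 0.58, adjusted p = 0.000128). Skp2 was at 2.45 (SE 0.38, adjusted p = 0.00423). These 3 calls held in all 20 alternatives. Ptcra was at 5.50 (SE 1.22, adjusted p = 0.0233), and its call ended in 8 of 20 alternatives with adjusted p up to 0.158, among them those without LN3 spleen 3, WT thymocyte 3 or any 1 of the WT CD8 libraries. Snai1 was at 2.83 (SE 0.72, adjusted p = 0.0463), and its call ended in 16 of 20 alternatives with adjusted p up to 0.155, among them those without any 1 library other than LN3 thymus 2 and LN3 spleen 3. Rag1 changed direction, at 6.82 in the spleen comparison and −3.25 in the thymus comparison. Dntt was at 6.54 in the spleen comparison, and averaged 688.9 CPM in LN3 thymus against 1301 in WT thymocytes. Both were lower in WT CD8 cells than in WT thymocytes, by 11.06 and 7.92. Between LN3 spleen and LN3 thymus edgeR called 0 of the 8 genes listed as activated by E proteins, against 0.723% of all genes. Stage of the control and organ cannot be told apart in these values.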

How the results depend on the processing

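Of the 8 calls among the 7 genes, 2 held in all 15 alternatives, both of Tcf12. In LN3 thymus against WT thymocytes the members called were 1, and 2 with library totals, DESeq2 or no filter, 0 with only the groups compared, 0 without the 3 GC-trend libraries and 0 to 1 with 1 library left out. In LN3 spleen against WT CD8 cells they were 2, and 1 with library totals or upper-quartile factors and 1 to 2 with 1 library left out. Between the WT groups they were 4, and 1 to 4 with 1 library left out. In LN3 spleen against WT thymocytes they were 1, 0 to 1 with 1 library left out, and 0 with upper-quartile factors, the GC offset or without the 3 GC-trend libraries. For the interaction they were 0, 0 to 1 with 1 library left out, and 1 with DESeq2, the GC offset or without the 3 GC-trend libraries. The cause was not tested.

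Over all genes, calls in the order of these comparisons were 2354, 6453, 3286, 4143 and 875, and 151 between the leukaemia groups. With 1 library left out they ranged from 1203 to 2736, 3999 to 5741, 1871 to 2743, 1926 to 5820, 463 to 880 and 0 to 217. With only the groups compared they were 1479 in the thymus comparison and 2406 in LN3 spleen against WT thymocytes. DESeq2 called 1738 for the interaction and 651 between the leukaemia groups, where library totals gave 43 and leaving out the 3 GC-trend libraries gave 1. With library totals or upper-quartile factors the share of higher calls went from 53.78% to 38.27% or 41.2% in the thymus comparison, from 57.96% to 40.09% or 41.68% in the spleen comparison and from 57.08% to 33.49% or 38.87% in LN3 spleen against WT thymocytes, as the median of all genes moved to −0.24 or −0.21, −0.51 or −0.43, and −0.41 or −0.32.

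Of the members' values 52 changed sign, and 0 of them were called in either setting. In LN3 thymus against WT thymocytes Tcf3 was −0.121 with library totals, −0.12 with upper-quartile factors, −0.0188 with DESeq2, −0.0118 with limma and −0.258 to 0.461 with 1 library left out. In LN3 spleen against WT CD8 cells Tcf4 was −0.00743 with library totals, −0.0327 without the GC-trend libraries and −0.0669 to 1.005 with 1 library left out, and Zeb1 was −0.14, −0.0848 and −0.19 with library totals, upper-quartile factors and limma. Between the leukaemia groups Zeb1 was −0.179, −0.11 and −0.188 with the same settings, −0.0138 with only the groups compared and −0.0137 with the GC offset. Id2 there was 0.0336 with DESeq2, 0.107 with limma and 0.455 without the GC-trend libraries, where Tcf3 was 0.159. With 1 library left out, the ranges between the leukaemia groups were −0.328 to 0.184 for Tcf3, −0.291 to 0.21 for Id2, −0.181 to 0.891 for Id3 and −0.116 to 0.174 for Zeb1. Between the WT groups they were −0.742 to 0.237 for Tcf4 and −0.0200 to 0.625 for Id1. In LN3 spleen against WT thymocytes they were −0.33 to 0.35 for Tcf3, −0.255 to 0.722 for Tcf4 and −0.99 to 0.181 for Id1. Tcf12 there was −0.0259 and Tcf4 −0.197 with library totals. Tcf4 was −0.0348 with upper-quartile factors, −0.31 with limma and −0.537 without the GC-trend libraries, where Tcf3 was 0.331. The Tcf4 interaction ranged from −1.004 to 0.0529 with 1 library left out.

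Same-numbered libraries of 5 pairs of groups correlated at −0.528 to 0.39 in their deviations. Of these 15 correlations 4 were over 0.1, and in 0 of the 5 pairs of groups were all 3. The main fit did not use the numbers as pairs because the labels do not say that a number marks 1 animal. These correlations cannot decide whether same-numbered leukaemia libraries came from 1 animal. The titles number the leukaemia samples of both organs alike, and some of the pairs of groups set LN3 against WT mice, which share no animal. Deviations also hold the GC trend: LN3 thymus 2 and LN3 spleen 1, both with steep trends, correlated at 0.464. With the replicate block, members called were 0 in the thymus comparison, 1 in the spleen comparison, 2 between the WT groups and 0 in LN3 spleen against WT thymocytes, and calls over all genes were 1712 between the WT groups, 38 between the leukaemia groups and 245 for the interaction. Under the block the difference between the leukaemia groups was 0.027 for Id2 and −0.00451 for Zeb1. Depth limits Id1, with 1 to 58 counts a library.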
